A study of Bos taurus with 18 samples.

Results

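Of the 18 RNA sequencing libraries of a bovine endometrium-on-a-chip experiment, 6 compared recombinant bovine protein disulfide isomerase (rbPDI, encoded by P4HB) with vehicle control in bovine endometrial epithelial cells (bEECs). They were chosen by their labels, which gave 3 bEEC libraries with rbPDI and 3 with vehicle, numbered by biological replicate. The primary bEECs came from late-luteal uterine tracts of 3 cattle and were perfused with medium, while stromal cells of the same endometrium (bESCs) grew in the other chamber of each device behind a porous membrane, so all groups were co-cultures. Vehicle control (VC) was PBS, and rbPDI was added to the epithelial side at 1 ug/mL for 24 h. The study also held 3 bEEC libraries with recombinant bovine CAPG (rbCAPG) at the same dose and time, and 3 bESC libraries for each of the 3 treatments. The bEECs were a population enriched by differential trypsinization and judged by eye, and each value is that of a whole cell pellet, in which fewer cells of a type and less RNA per cell cannot be told apart.

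PDI is a chaperone of the endoplasmic reticulum that forms and rearranges disulfide bonds, and it is also found among proteins that the early bovine conceptus secretes into the uterine lumen. The luminal epithelium is the first maternal tissue that meets such proteins. Epithelial cells answer many extracellular cues through NF-kB, a transcription factor held inactive by inhibitors such as NFKBIA, and its targets include chemokines, cytokines and its own inhibitors.

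The libraries held 28206464 to 38124690 counts with VC and 28898224 to 34929401 with rbPDI, and 16900 to 18168 genes had more than 3 counts. Values are given as CPM, counts scaled to the effective size of the library after TMM normalization, in the order of animals 1, 2 and 3. Gene symbols were known only for 190 genes that the study had listed as changed with rbCAPG in bEECs, in bESCs or in both. Each was listed against the VC libraries of its own cell type, which for bEECs are the VC libraries used here. The direction of a named gene or list is therefore not independent evidence, and levels were not compared between genes because no gene lengths were at hand. No sequence of a gene or promoter was used here.

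Epithelial identity was checked with the markers that had a symbol. OCLN, a tight junction protein, was at 85.6 to 105 CPM in VC bEECs, 89. to 114 with rbPDI and 0.227 to 3.24 over the 9 bESC libraries. The epithelial markers MUC1, AGR2 and CDH26 were also higher in every one of the 6 bEEC libraries than in any bESC library, and the 4 markers were 40% of the epithelial list. The 5 stromal markers with a symbol (ZEB1, HAND2, VCAN, COL6A1, EMILIN1), 38.5% of their list, summed to 6.62, 14.6 and 7.75 CPM in the VC libraries, to 11.8, 26.6 and 32.8 CPM in the rbPDI libraries and to 193.5 to 363.3 CPM in bESCs. A broader set of 112 genes at least 64-fold higher in bESCs than bEECs summed to 296.5, 826.4 and 460.5 CPM with VC and 344.5, 778.2 and 1360.5 CPM with rbPDI. The ranges of that set overlapped, and 5 of its genes were called higher with rbPDI and 0 lower. Of 339 genes at least 64-fold higher in bEECs than bESCs, 50 were called higher and 13 lower, and over all genes tested 2.57% were called higher and 0.396% lower. Both sets were defined on the means of all 9 libraries of each cell type, treated ones included. Genes that rose with rbPDI in bEECs thus entered the set of 339 more easily and the set of 112 less easily. Their counts of calls are therefore not an independent comparison with those shares. Among the 3 immune markers with a symbol, of 6, CD14 and AIF1 rose with rbPDI. The endothelial markers TEK and SELP, 2 of 5, were at 0.0302 to 0.128 and 1.47 to 3.62 CPM with VC. Most defining markers of each list had no identifier and were not analysed here.

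With rbPDI, 460 of 17931 genes tested rose (2.57% of those tested) and 71 fell (0.396%), 2.96% in all, at an adjusted p under 0.05 in edgeR's quasi-likelihood test with the animal as a block, adjusted by the Benjamini-Hochberg method, and an absolute log2 fold change above 1. Genes that rose were mostly low with VC, with a median of 2.0 CPM, against 10.1 CPM with rbPDI. Of these 460 genes, 183 were under 1 CPM with VC and 19 were at 100 CPM or more. The log2 fold change was between 1.01 and 11.75 (median 2.01), and it exceeded 3 for 131 genes. Genes that fell changed less, from 1.00 to 5.32 on the log2 scale in size, with 3 of 71 beyond 3. Summed over each set, the 460 genes went from 10800 to 61690 CPM and the 71 from 6898 to 2423 CPM. The median log2 fold change of all genes tested was -0.02.

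**Figure D1:**
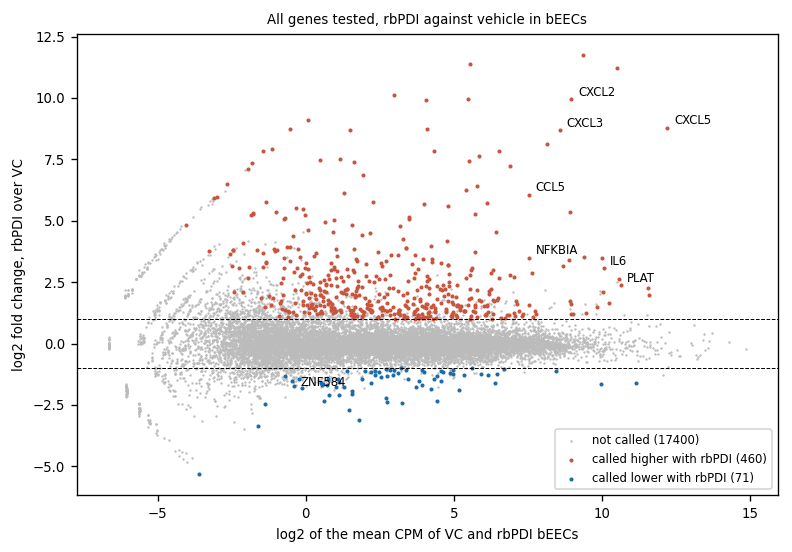
Each point is 1 of 17931 genes tested, with the log2 of its mean CPM over VC and rbPDI bEECs on the x axis and its log2 fold change on the y axis. The dashed lines mark a log2 fold change of 1 in either direction. The 460 genes called higher (red) reach 11.75, and the 71 called lower (blue) lie within 2 of the 0 line for 58 genes.

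The change had the same sign in all 3 animals for 457 of the 460 genes and for all 71 that fell, which were called from these libraries, against 7295 of all 17931 genes tested. The 3 rbPDI libraries lay wholly above the 3 VC libraries for 398 of the 460, and wholly below for 49 of the 71. Over all genes tested the groups did not overlap for 14.8%. Most genes named below were picked by a small p among those called. That their groups were separate follows largely from this choice and is not further evidence. Animals differed in the size of the change. The largest ratio of rbPDI to VC was in animal 3 for 241 of the 460 genes, in animal 1 for 162 and in animal 2 for 57. Over all 17931 genes tested it was in animal 3 for 7707, in animal 1 for 5727 and in animal 2 for 4497. The order of the animals is therefore not particular to the 460. Without the block for animal, 138 genes were called higher and 7 lower, and all 145 were among the 531 of the blocked fit. Leaving out VC library 1, 2 or 3 gave 276, 402 and 218 higher genes, and leaving out rbPDI library 1, 2 or 3 gave 275, 289 and 256. The same omissions gave 28, 49 and 27 lower genes for VC and 22, 29 and 26 for rbPDI.

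Only 134 of the 460 genes that rose and 2 of the 71 that fell had a symbol. Of 149 genes listed by function, 140 had an identifier and all of them were tested. Of these, 101 rose, 0 fell and 39 were not called, against 2.57% and 0.396% of all genes tested. Of the 190 genes with a symbol, all of them tested, 134 rose and 2 fell. The lists were drawn up from these 190 genes. Their counts, in total and list by list, therefore describe the genes and do not set them apart from others.

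**Figure D2:**
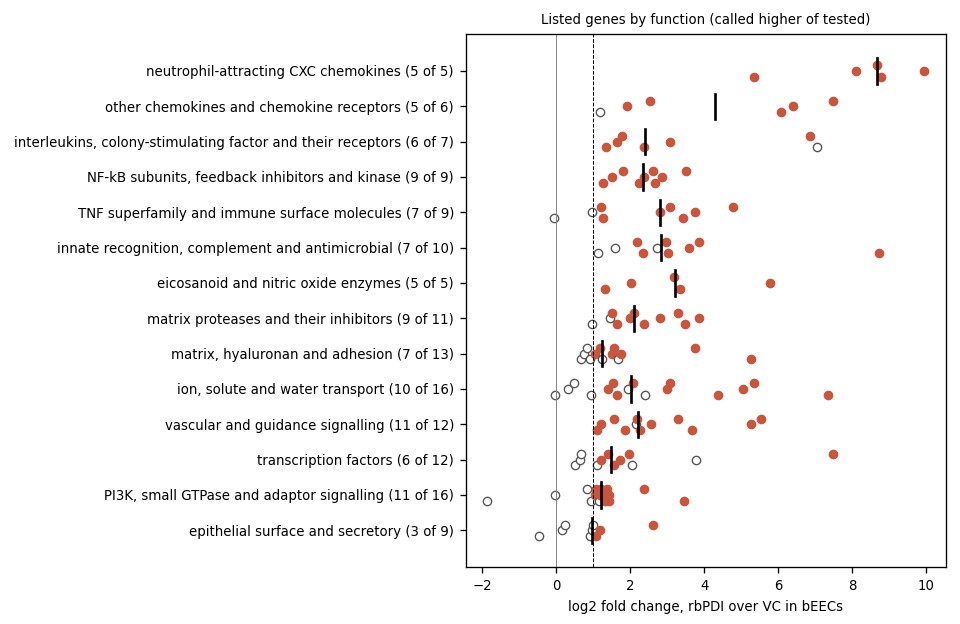
Each circle is a listed gene with a symbol, placed by its log2 fold change with rbPDI over VC in bEECs. Filled circles were called higher and open circles were not called, black bars are list medians, and the dashed line marks a log2 fold change of 1. Values of genes with no count in VC, such as CLEC1A, IL37 and ARNTL2, are fitted and depend on a prior count. The 5 CXC chemokines have the highest median, 8.68, and the epithelial list the lowest, 0.956.

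Neutrophil-attracting CXC chemokines, the ligands that act on receptors of neutrophils, rose in 5 of 5 cases with a median log2 fold change of 8.68. CXCL2 was at 0.635, 1.09 and 0.598 CPM with VC and at 2024, 445 and 528 CPM with rbPDI (log2 fold change 9.94, SE 0.69, adjusted p = 2.85e-06). CXCL5, made by many epithelia, went from 15.4, 18.3 and 25.1 to 12150, 4872 and 11270 CPM (log2 fold change 8.79, SE 0.66, adjusted p = 3.96e-06). For both genes every rbPDI library was far above every VC library. CXCL3 rose from 0.907, 2.24 and 2.09 to 1162, 582 and 536 CPM (log2 fold change 8.68, SE 0.71, adjusted p = 8.73e-06). GRO1, a bovine member of the GRO group to which CXCL2 and CXCL3 belong, rose from 1.03, 3.59 and 1.5 to 805, 483 and 388 CPM (log2 fold change 8.11, SE 0.68, adjusted p = 1.04e-05). CXCL8, the classical neutrophil attractant, was at 116, 6.85 and 4.34 CPM with VC and at 1779, 434 and 536 CPM with rbPDI (log2 fold change 5.35, SE 0.81, adjusted p = 0.00176). For CXCL8, VC library 1 stood far above the other VC libraries but below every rbPDI library, and without the block the gene was not called (adjusted p = 0.084). Together the 5 genes took 0.0134%, 0.00320% and 0.00337% of counts with VC and 1.79%, 0.682% and 1.33% with rbPDI. Their deposited values were not whole in 11 to 17 of 18 libraries, so some reads were shared with related or overlapping genes and the split among them is uncertain.

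**Figure D3:**
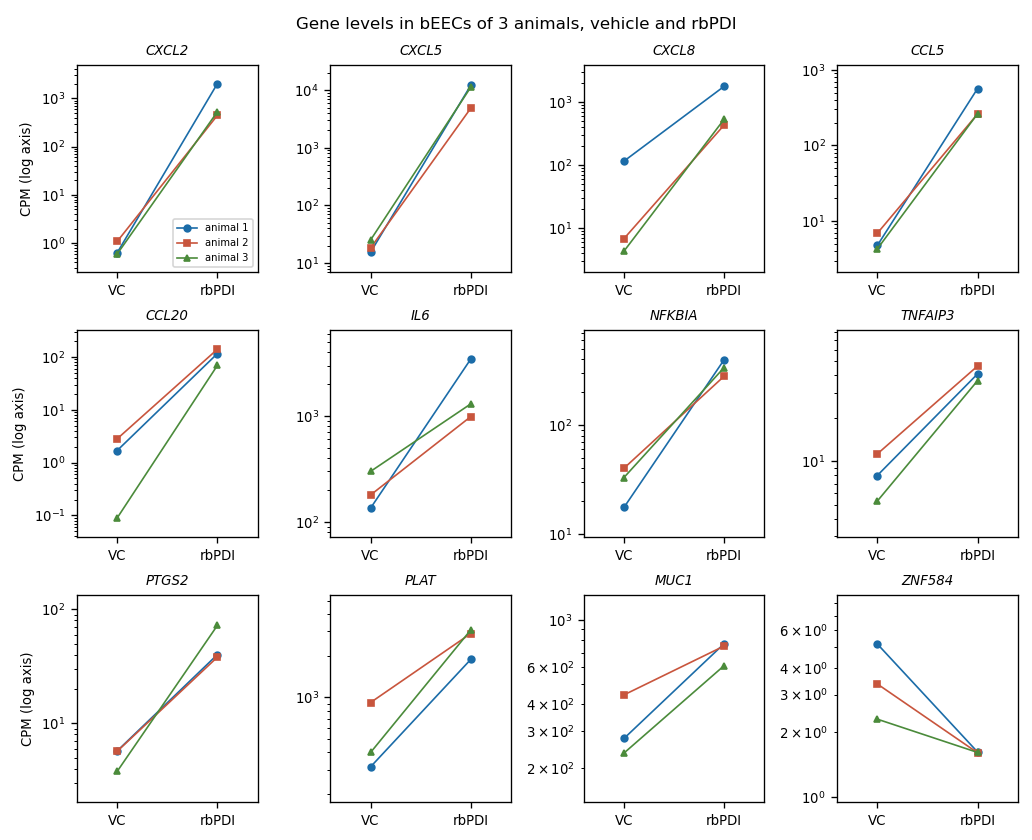
CPM on a log axis of 12 genes in bEECs with VC and with rbPDI, each line and marker being 1 animal. All lines rise except those of ZNF584, which fall in all 3 animals, and CXCL8 in animal 1 starts at 116 CPM against 6.85 and 4.34 in the others.

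Of 6 other chemokines and chemokine receptors tested, 5 rose, with a median of 4.30. The ligand CCL5, which attracts T cells and monocytes, went from 4.74, 6.88 and 4.28 to 566, 261 and 263 CPM (log2 fold change 6.07, SE 0.61, adjusted p = 5.16e-05). CCL20, the ligand of CCR6 on dendritic cells and lymphocytes, went from 1.69, 2.82 and 0.0897 to 116, 139.6 and 69.1 CPM (log2 fold change 6.41, SE 0.73, adjusted p = 0.000167). CX3CL1, a membrane-bound ligand, had 2 counts in all VC libraries together and reached 5.84, 4.88 and 2.52 CPM with rbPDI, a ratio of 203 (95% counting interval 55.8 to 1680, adjusted p = 5.16e-05). For each of the 3 ligands every rbPDI library was above every VC library. The receptor CXCR4, which binds CXCL12, rose from 9.4, 17.9 and 12.4 to 28., 52.7 and 78.9 CPM (log2 fold change 1.91, SE 0.33, adjusted p = 0.00508). CCRL2, a non-signalling receptor that holds chemerin, rose from 0.786, 1.44 and 1.41 to 4.01, 6.15 and 12.3 CPM (log2 fold change 2.53, SE 0.48, adjusted p = 0.00844). Neither receptor was called without the block (adjusted p = 0.123 and 0.0792), CXCR4 was not called without VC library 3 (adjusted p = 0.0518), and CCRL2 was not called without VC library 1 or 3 or rbPDI library 3 (0.051, 0.0877 and 0.0653). The ligand CXCL16 was at 288, 535 and 321 and 1141, 937 and 595 CPM and was not called (adjusted p = 0.0669), though DESeq2 called it (0.00668). CCL2 and CCL8 had no identifier.

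Cytokines and their receptors rose in 6 of 7 cases, with a median of 2.39. IL6, a cytokine of the acute phase response, went from 135, 179 and 299 to 3463, 988 and 1303 CPM (log2 fold change 3.07, SE 0.67, adjusted p = 0.02). Its rise was largest in animal 1, and IL6 was not called when VC library 1, 2 or 3 or rbPDI library 1 or 2 was left out (adjusted p = 0.116, 0.0588, 0.0702, 0.0931 and 0.0579). CSF3, the growth factor of granulocytes, had 4, 2 and 0 counts with VC and reached 9.25, 7.44 and 5.72 CPM with rbPDI (log2 fold change 6.86, SE 0.53, adjusted p = 1.79e-05; 0.0505 without the block). IL23A, a subunit of interleukin 23, rose from 1.87, 3.46 and 2.33 to 6.39, 7.31 and 5.48 CPM (log2 fold change 1.35, SE 0.26, adjusted p = 0.00999). Its call was lost without VC library 1 or 3 or rbPDI library 1 or 2 (adjusted p = 0.0702, 0.0768, 0.0765 and 0.0579). The other 3 are inhibitors or receptors. IL1RN, the antagonist of the interleukin 1 receptor, rose from 42.5, 39.5 and 33.8 to 197, 120.4 and 93.6 CPM (log2 fold change 1.77, SE 0.25, adjusted p = 0.0011). IL1R2, a decoy receptor for interleukin 1, rose from 0.604, 0.704 and 0.269 to 3.03, 2.49 and 2.52 CPM (log2 fold change 2.39, SE 0.46, adjusted p = 0.00956). IL18R1, a receptor subunit for interleukin 18, rose from 0.272, 0.576 and 0.269 to 0.937, 1.09 and 1.45 CPM (log2 fold change 1.64, SE 0.29, adjusted p = 0.00486). None of these 3 was called without the block (adjusted p = 0.0563, 0.171 and 0.061). IL1R2 was not called without VC library 1 or 3 or rbPDI library 3 (adjusted p = 0.0573, 0.0857 and 0.0545), and IL18R1 was not called without VC library 3 (0.0513). IL37, an anti-inflammatory cytokine, had 0 counts in all VC libraries and 0.469, 0.444 and 0.483 CPM with rbPDI, at least 5.05-fold higher against a floor of 3 counts per library, and was not called (adjusted p = 0.0621). It was called with unrounded values (adjusted p = 0.0405) and by DESeq2 (0.00131).

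All 9 genes of the NF-kB list rose, with a median of 2.36 and the smallest change in NFKB1, a subunit of the factor itself. Of the inhibitors, NFKBIA, which holds NF-kB in the cytoplasm, went from 17.6, 40.2 and 33. to 397, 280.1 and 336 CPM (log2 fold change 3.50, SE 0.30, adjusted p = 1.42e-05). TNFAIP3, which removes ubiquitin chains from the signalling complex, rose from 7.98, 11.3 and 5.29 to 40.7, 46.1 and 36.5 CPM (log2 fold change 2.37, SE 0.25, adjusted p = 6.9e-05). TNIP1, its binding partner, rose from 17.7, 22.9 and 19.6 to 69.8, 59.2 and 83.7 CPM (log2 fold change 1.81, SE 0.23, adjusted p = 0.000377). In each of the 3 inhibitors the lowest rbPDI library was above the highest VC library. ZC3H12A, an RNase that degrades cytokine mRNAs, rose from 2.96, 3.55 and 2.81 to 24.5, 18.3 and 25.6 CPM (log2 fold change 2.86, SE 0.24, adjusted p = 9.18e-06). NFKBIZ, a nuclear cofactor of NF-kB, rose from 13.1, 19.4 and 16.7 to 70.1, 78.2 and 79.8 CPM (log2 fold change 2.23, SE 0.19, adjusted p = 1.04e-05). BIRC3, a ubiquitin ligase of the TNF receptor complex, rose from 20.5, 22.7 and 29.3 to 209, 127 and 136 CPM (log2 fold change 2.68, SE 0.28, adjusted p = 5.63e-05). These 6 genes were called under all 15 alternative settings that were followed gene by gene, which did not include glmTreat.

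Of 9 genes of the TNF superfamily and immune surface molecules, 7 rose, with a median of 2.80. CD40, a receptor for T cell help that epithelia can carry, went from 11.9, 6.76 and 12.6 to 113, 81.1 and 68.7 CPM (log2 fold change 3.08, SE 0.23, adjusted p = 3.96e-06). TNFRSF9, also known as 4-1BB, rose from 0.665, 0.704 and 0.538 to 25.4, 14.7 and 12.7 CPM (log2 fold change 4.77, SE 0.44, adjusted p = 2.05e-05). TNFAIP2, which is in this list but is named only for its induction by TNF, rose from 0.514, 0.736 and 1.02 to 7.58, 8.13 and 14.7 CPM (log2 fold change 3.75, SE 0.32, adjusted p = 1.14e-05). CD200, a ligand that restrains myeloid cells, rose less, from 15.5, 17.4 and 22.2 to 43., 36.6 and 53.5 CPM (log2 fold change 1.27, SE 0.19, adjusted p = 0.00133). The groups did not overlap for any of these 4 genes. TNFSF15, a TNF-like ligand, was at 132, 208 and 347 and 158, 219.8 and 251 CPM, and its groups overlapped (log2 fold change -0.05, adjusted p = 0.99). The immune marker SLAMF8 was at 2.6, 0.672 and 0.838 and 4.94, 1.02 and 2.26 CPM, was not called (adjusted p = 0.101) and also overlapped.

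In the list of innate recognition, complement and antimicrobial genes, 7 of 10 rose, with a median of 2.84. CD14, a co-receptor for bacterial lipopolysaccharide, went from 8.7, 6.82 and 5.8 to 32.9, 34.3 and 41.8 CPM (log2 fold change 2.34, SE 0.29, adjusted p = 0.000364). RNF125, a ubiquitin ligase of the RNA sensing pathway, rose from 7.13, 10.1 and 9.24 to 43.4, 31.4 and 44.1 CPM (log2 fold change 2.17, SE 0.23, adjusted p = 6.55e-05). The other immune marker, AIF1, known from macrophages, went from 4.02, 14.2 and 12.7 to 20.1, 30.3 and 29.7 CPM (log2 fold change 1.48, SE 0.27, adjusted p = 0.0106) and was at most 0.082 CPM in bESCs. AIF1 was not called without the block (adjusted p = 0.13) or without rbPDI library 1 or 3 (0.0605 and 0.0653). The 2 proteases that start the classical complement pathway were low in bEECs and high in bESCs. C1R went from 0.242, 0.768 and 0.269 to 2.26, 3.96 and 4.08 CPM (log2 fold change 3.04, SE 0.31, adjusted p = 5.39e-05), against a mean of 256 CPM in bESCs with rbPDI. C1S went from 0.393, 0.704 and 0.299 to 3.37, 3.35 and 4.3 CPM (log2 fold change 2.96, SE 0.36, adjusted p = 0.000298), against 522 CPM in bESCs with rbPDI. OLR1, a scavenger receptor named here after its values were seen, went from 1.87, 1.28 and 0.718 to 13.6, 14.1 and 19.9 CPM (log2 fold change 3.59, SE 0.47, adjusted p = 0.000513), against 1318 CPM in bESCs with rbPDI. In rbPDI bEECs these 3 genes stood at 0.533% to 1.54% of their level in the bESCs of the same device, and the 112 stromal-enriched genes stood at 1.16%, 0.74% and 1.11%. With VC the 3 genes were at 0.0975% to 0.696% and the 112 genes at 0.423%, 0.761% and 0.359%. The part of stromal RNA in these 3 rises was not tested. C1R, C1S and OLR1 were the 3 genes with a symbol, of 4 in all among the 460, that were under 2% of the bESC level in every animal. Over all 17931 genes tested, 194 were under that limit, so this count does not set the 460 apart. CLEC1A, a C-type lectin, had 0 counts in all VC libraries and 1.36, 1.3 and 1.45 CPM with rbPDI, at least 14.9-fold higher against a floor of 3 counts per library (adjusted p = 0.00149, and 0.0563 without the block). SAA3, M-SAA3.2, S100A8, S100A9 and CLEC7A had no identifier.

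The enzymes of prostaglandin, lipoxygenase and nitric oxide synthesis and their regulators rose in 5 of 5 cases, with a median of 3.2. PTGS2, the inducible enzyme of prostaglandin synthesis, went from 5.74, 5.7 and 3.8 to 40.1, 38.1 and 72.4 CPM (log2 fold change 3.2, SE 0.42, adjusted p = 0.000606). PLA2G4A, which frees the arachidonic acid that PTGS2 uses, rose from 22., 29.9 and 30.8 to 46.1, 61.2 and 113 CPM (log2 fold change 1.33, SE 0.27, adjusted p = 0.0125). PLA2R1, a receptor for secreted phospholipases, rose from 0.272, 0.993 and 0.598 to 3.2, 9.02 and 5.8 CPM (log2 fold change 3.36, SE 0.40, adjusted p = 0.000236). ALOX12, a lipoxygenase, rose from 0.846, 1.41 and 0.778 to 2.43, 5.84 and 4.05 CPM (log2 fold change 2.02, SE 0.28, adjusted p = 0.000957). The groups did not overlap in these 4 genes, and ALOX12 and PLA2G4A were not called without the block (adjusted p = 0.161 and 0.302). PLA2G4A was also not called without VC library 3 or rbPDI library 3 (0.13 and 0.108). NOS2, the inducible nitric oxide synthase, named after its values were seen, had 1 count in all VC libraries and 0.511, 1.16 and 0.591 CPM with rbPDI, a ratio of 73.9 (95% counting interval 12.8 to 2960, adjusted p = 0.0333). It was not called without the block (adjusted p = 0.195) or when VC library 1, 2 or 3 (0.119, 0.148 and 0.178) or rbPDI library 1, 2 or 3 (0.107, 0.122 and 0.102) was left out.

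Matrix proteases and their inhibitors rose in 9 of 11 cases, with a median of 2.11. PLAT, the tissue plasminogen activator, went from 315, 918 and 399.7 to 1882, 2895 and 3076 CPM (log2 fold change 2.38, SE 0.28, adjusted p = 0.000238). MMP1, a collagenase, rose from 37.7, 27.8 and 25. to 234, 181 and 214 CPM (log2 fold change 2.81, SE 0.55, adjusted p = 0.0105; adjusted p = 0.0536 without VC library 1 and 0.0871 without VC library 3). TMPRSS6, a membrane serine protease, rose from 0.242, 1.86 and 1.11 to 3.32, 9.39 and 18.7 CPM (log2 fold change 3.29, SE 0.45, adjusted p = 0.000762; 0.0723 without the block), and CAPN14, a calpain, rose from 0.121, 0.032 and 0.15 to 1.49, 1.67 and 1.45 CPM (log2 fold change 3.86, SE 0.59, adjusted p = 0.00628). The rbPDI libraries were above the VC libraries in all 4. The 3 abundant members that follow are named after their values were seen. PLAU, the urokinase plasminogen activator, went from 1106, 1013 and 1357 to 8139, 3771 and 3100 CPM (log2 fold change 2.00, SE 0.45, adjusted p = 0.023), and its receptor PLAUR from 459.7, 553 and 637 to 2928, 1579 and 1139 CPM (log2 fold change 1.66, SE 0.36, adjusted p = 0.0194). The collagenase MMP13 went from 134, 144 and 206 to 2211, 1063 and 2428 CPM (log2 fold change 3.47, SE 0.85, adjusted p = 0.0363). These 3 calls rested on the full set of libraries. PLAU was called only without rbPDI library 3, PLAUR only without VC library 3 or rbPDI library 3, and MMP13 in none of the 6 fits that left out 1 VC or rbPDI library, with adjusted p up to 0.129, 0.114 and 0.185. Without the block PLAU was called (adjusted p = 0.0496) and PLAUR and MMP13 were not (0.0853 and 0.132).

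Of 13 genes of matrix, hyaluronan and adhesion, 7 rose, with a median of 1.23. FERMT1, an adaptor of epithelial integrins, went from 20.3, 16.1 and 17. to 58.5, 52.9 and 46. CPM (log2 fold change 1.56, SE 0.16, adjusted p = 4.86e-05). PCOLCE2, which enhances procollagen processing, rose from 4.35, 7.56 and 3.11 to 12.1, 17.9 and 18.7 CPM (log2 fold change 1.75, SE 0.25, adjusted p = 0.00121). BPNT2, a phosphatase needed for sulfation of matrix sugars, rose from 56.3, 46.8 and 42.8 to 131, 95.8 and 107 CPM (log2 fold change 1.19, SE 0.19, adjusted p = 0.00236). ANTXR2, a receptor that binds matrix collagen, rose from 72.7, 71.6 and 62. to 136, 145 and 143 CPM (log2 fold change 1.04, SE 0.18, adjusted p = 0.00475). ANTXR2 was not called without the block (adjusted p = 0.084), without VC library 3 (0.0513) or without rbPDI library 2, where its log2 fold change was 0.99. The stromal markers of this list were low in bEECs. EMILIN1 was at 0.484, 1.03 and 0.239 and 1.36, 1.54 and 1.99 CPM and was called (log2 fold change 1.51, SE 0.38, adjusted p = 0.0422), but not without the block (adjusted p = 0.161), nor without VC library 1 or 3 (0.153 and 0.229) or rbPDI library 1, 2 or 3 (0.136, 0.0878 and 0.213). VCAN was at 1.72, 3.23 and 1.94 and 2.9, 5.63 and 9.69 CPM (adjusted p = 0.058, and 0.0482 without VC library 2), and COL6A1 was at 2.75, 7.4 and 3.14 and 3.54, 12.2 and 10.6 CPM (adjusted p = 0.164). Both ranges overlapped between VC and rbPDI. The summed stromal markers given above include these genes, so the direction of that sum is not separate information about them. The part of stromal RNA in these values was not tested.

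Transporters and channels rose in 10 of 16 cases, with a median of 2.01, and most were at a few CPM or less. GJB6, a gap junction protein, went from 0.0302, 0.32 and 0.299 to 0.937, 1.67 and 2.52 CPM (log2 fold change 3.06, SE 0.47, adjusted p = 0.00197). SLC14A1, a urea transporter, rose from 2.9, 4.35 and 2.33 to 12.6, 11.6 and 6.28 CPM (log2 fold change 1.64, SE 0.29, adjusted p = 0.00613). SLC17A1, a phosphate transporter, rose from 0.393, 0.608 and 0.239 to 4.26, 3.18 and 2.15 CPM (log2 fold change 3.00, SE 0.42, adjusted p = 0.0035). SLC5A1, the sodium and glucose cotransporter, rose from 0.0604, 0.16 and 0 to 1.66, 1.64 and 0.832 CPM (log2 fold change 4.37, SE 0.66, adjusted p = 0.00581), with 2, 5 and 0 counts in the VC libraries. All 4 were separated between VC and rbPDI, but GJB6, SLC14A1 and SLC5A1 were not called without the block (adjusted p = 0.0728, 0.0847 and 0.0845), nor SLC14A1 without VC library 1 (0.0525). CFTR, the chloride channel of epithelia, was at 0.0907, 0.0961 and 0.0897 and 0.213, 0.444 and 0.456 CPM and was not called (adjusted p = 0.0739).

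Of 12 genes of vascular and guidance signalling, 11 rose, with a median of 2.21. The ligand ANGPT1, which activates the endothelial receptor TEK, went from 0.121, 0.256 and 0.18 to 2.43, 2.49 and 2.07 CPM (log2 fold change 3.67, SE 0.45, adjusted p = 0.000286). EDN1, the peptide endothelin 1, rose from 33.8, 42.2 and 35.2 to 194, 108 and 124 CPM (log2 fold change 1.87, SE 0.30, adjusted p = 0.00244; 0.073 without the block). ESM1, a secreted proteoglycan named after its values were seen, rose from 1284, 754 and 1006 to 6579, 5308 and 2997 CPM (log2 fold change 2.25, SE 0.40, adjusted p = 0.00612; 0.0675 without the block). Among the receptors, RAMP3, a partner of the adrenomedullin receptor, had 3, 0 and 2 counts with VC and reached 2.22, 0.717 and 2.71 CPM with rbPDI (log2 fold change 5.25, SE 0.64, adjusted p = 0.00104). PROKR2, a prokineticin receptor, had 3 counts in all VC libraries and reached 1.32, 1.61 and 1.64 CPM, a ratio of 50.3 (95% counting interval 16.9 to 247, adjusted p = 0.00166, and 0.142 without the block). Both endothelial markers of the list were called. TEK went from 0.0302, 0.128 and 0.0598 to 0.554, 0.888 and 0.671 CPM (log2 fold change 3.28, SE 0.72, adjusted p = 0.0198), and was not called in any of the 6 fits that left out 1 VC or rbPDI library (adjusted p = 0.0673 to 0.127). SELP, an adhesion molecule of endothelium, went from 2.96, 3.62 and 1.47 to 4.52, 16. and 36.8 CPM (log2 fold change 2.55, SE 0.62, adjusted p = 0.0333), against a mean of 299 CPM in bESCs with rbPDI. SELP was not called without the block (adjusted p = 0.0655), without VC library 1, 2 or 3 (0.0586, 0.0805 and 0.224) or without rbPDI library 2 or 3 (0.14 and 0.176). In the bESCs of the same devices with rbPDI, SELP was at 82.0, 296 and 517 CPM. The 112 stromal-enriched genes stood in rbPDI bEECs at 1.16%, 0.74% and 1.11% of their bESC level. The part of stromal RNA in the rise of SELP was not tested.

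Of 12 transcription factors, 6 rose, with a median of 1.48. CEBPD, a factor of the acute phase response, went from 71.7, 111 and 113 to 177, 252 and 252 CPM (log2 fold change 1.21, SE 0.20, adjusted p = 0.0035; 0.0735 without the block). NFE2L3, a factor of the NRF family, rose from 29.2, 27.7 and 26.8 to 88.9, 91.2 and 101 CPM (log2 fold change 1.74, SE 0.23, adjusted p = 0.000535; 0.103 without the block). RIPPLY3, a repressor of T-box factors, had 1 count in all VC libraries and reached 1.24, 1.16 and 5.83 CPM, a ratio of 304 (95% counting interval 54.1 to 12100, adjusted p = 0.000189). The stromal marker ZEB1, which represses epithelial genes, went from 1.6, 2.72 and 2.33 to 3.88, 7.0 and 10.2 CPM (log2 fold change 1.57, SE 0.24, adjusted p = 0.00158; 0.122 without the block). In bESCs ZEB1 was at 21.1 to 44.4 CPM, and the part of stromal RNA in its rise was not tested. The stromal factor HAND2 was at 0.0604, 0.192 and 0.0897 and 0.128, 0.205 and 0.376 CPM and was not called (adjusted p = 0.308). IRF1, a factor of the interferon response, was at 35.1, 47.6 and 55.1 and 66.3, 68.8 and 75.5 CPM (log2 fold change 0.64, adjusted p = 0.239), so its groups were separated without a call.

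In the list of PI3K, small GTPase and adaptor signalling, 11 of 16 rose, with a median of 1.20. CYRIA, an inhibitor of RAC1-driven actin assembly, went from 13.4, 13.8 and 7.09 to 67.4, 59.6 and 46.4 CPM (log2 fold change 2.39, SE 0.19, adjusted p = 7.07e-06; 0.0801 without the block). RND1, a GTPase that loosens actin fibres, rose from 4.11, 2.43 and 1.14 to 27.7, 17. and 39.7 CPM (log2 fold change 3.46, SE 0.43, adjusted p = 0.000364). RHOJ, a relative of CDC42, rose from 17.1, 11. and 16.2 to 49.3, 25.6 and 39.4 CPM (log2 fold change 1.34, SE 0.19, adjusted p = 0.00113; 0.118 without the block). FMNL3, a formin, rose from 2.21, 4.45 and 4.76 to 5.62, 9.56 and 13.6 CPM (log2 fold change 1.32, SE 0.18, adjusted p = 0.000742; 0.125 without the block). All 4 act on the actin skeleton, and in each the rbPDI libraries were above the VC libraries. DEPTOR, an inhibitor of mTOR, was the listed gene with the most negative value, at 0.484, 0.384 and 0.509 and 0.17, 0.137 and 0.0805 CPM (log2 fold change -1.86, adjusted p = 0.0869), and was not called. IER3, an immediate early gene, was at 725, 996 and 1466 and 2639, 2424 and 2101 CPM and was not called either (adjusted p = 0.11).

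Of 9 genes of the epithelial surface and secretion, 3 rose, with a median of 0.956. AGR2, itself a member of the PDI family of secretory cells, went from 203, 852 and 339.6 to 2492, 3356 and 1930 CPM (log2 fold change 2.61, SE 0.41, adjusted p = 0.00219; 0.0728 without the block). MUC1, the membrane mucin of the endometrial lumen, rose from 276, 443 and 236 to 772, 752 and 608 CPM (log2 fold change 1.19, SE 0.29, adjusted p = 0.0323; 0.105 without the block). GPX2, an epithelial glutathione peroxidase, rose from 117, 163 and 114 to 261, 273 and 278 CPM (log2 fold change 1.07, SE 0.24, adjusted p = 0.0202; 0.436 without the block). For all 3 the groups did not overlap. MUC1 was not called without VC library 1 or 3 (adjusted p = 0.168 and 0.197) or rbPDI library 1, 2 or 3 (0.16, 0.0938 and 0.145), and GPX2 was not called without VC library 1, 2 or 3 (0.124, 0.0603 and 0.119) or rbPDI library 1 or 3 (0.0842 and 0.184). OCLN changed little (log2 fold change 0.16, adjusted p = 0.947), and CDH26, a cadherin, was at 18.3, 26.7 and 20.6 and 24.6, 36.6 and 75.2 CPM (adjusted p = 0.142).

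The 71 genes that fell had a median log2 fold change of -1.45 and went from a median of 9.71 to 3.6 CPM. Among the 2 with a symbol, ZNF584, a zinc finger protein, fell from 5.17, 3.36 and 2.3 to 1.62, 1.61 and 1.61 CPM (log2 fold change -1.10, SE 0.26, adjusted p = 0.0301). VC library 1 was the highest and all rbPDI libraries were below all VC libraries. ZNF584 was not called without the block (adjusted p = 0.0782), and of the 6 fits that left out 1 VC or rbPDI library it was called only without VC library 3 (adjusted p = 0.0502 to 0.213 in the others). Of the genes without a symbol, 2 had the smallest p-values among those that fell. ENSBTAG00000015493 fell from 21.7, 40.4 and 25.6 to 4.86, 11.1 and 8.51 CPM (log2 fold change -1.85, SE 0.22, adjusted p = 0.000213), and ENSBTAG00000060823 fell from 10.1, 7.43 and 15.9 to 1.96, 1.16 and 3.73 CPM (log2 fold change -2.36, SE 0.25, adjusted p = 0.000678). Among genes without a symbol that rose, ENSBTAG00000001321 had 3 counts in VC library 1 and none in the others, and was at 160.2, 53.5 and 67.2 CPM with rbPDI (adjusted p = 1.11e-06). ENSBTAG00000007449 rose from 1.03, 0.608 and 1.85 to 41.0, 48.7 and 73.5 CPM (log2 fold change 5.62, SE 0.33, adjusted p = 1.18e-06).

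Whether the 2 added proteins changed the same cells differently was tested directly, as rbPDI against rbCAPG in bEECs, a contrast that does not use the VC libraries. Of 17931 genes 0 were called (0% of those tested), and 333 (1.86%) had an unadjusted p under 0.05. DESeq2 also called 0, with 488 at an unadjusted p under 0.05. CCL5 had the smallest p among genes with a symbol, at 56.7, 72.2 and 121 CPM with rbCAPG and 566, 261 and 263 CPM with rbPDI, a log2 difference of 2.10 (95% interval 0.98 to 3.21) (adjusted p = 1, edgeR). Its groups were separate. For CSF3 the difference was 1.11 (95% interval 0.37 to 1.85), for TNFRSF9 1.19 (95% interval 0.40 to 1.98) and for CD40 0.61 (95% interval 0.16 to 1.06), all with an adjusted p of 1. The difference was 0.93 (95% interval 0.36 to 1.5) for C1R, 1.13 (95% interval 0.34 to 1.93) for ANGPT1 and, in the other direction, -2.55 (95% interval -4.45 to -0.66) for KLF9, a Kruppel-like transcription factor at 0.0342 to 0.0805 CPM with rbPDI and 0.209 to 0.506 CPM with rbCAPG, again with an adjusted p of 1. These 7 genes, those with a symbol and the smallest p, were named after their values were seen. For the CXC chemokines the intervals included 0 and were wide. The difference was 0.77 (95% interval -0.22 to 1.76) for CXCL2, 0.64 (95% interval -0.36 to 1.65) for CXCL5 and 0.81 (95% interval -0.62 to 2.23) for CXCL8. For the NF-kB inhibitors they were narrower. The difference was 0.18 (95% interval -0.41 to 0.76) for NFKBIA and 0.08 (95% interval -0.42 to 0.58) for TNFAIP3, so a difference of more than 0.77 and 0.59 upward lay outside the respective intervals. A fit to the 6 rbPDI and rbCAPG bEEC libraries alone called 27 genes, 26 of them higher with rbPDI, with CCL5, CSF3 and CCL20 as the 3 that had a symbol, and a fit to the 9 bEEC libraries called 1, ENSBTAG00000060433.

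**Figure D4:**
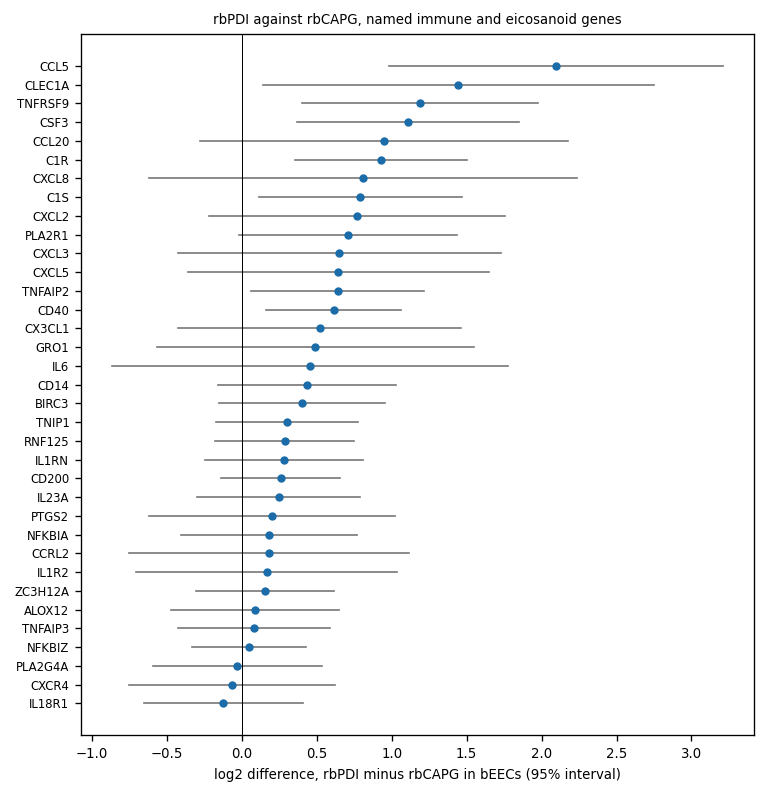
Log2 difference between rbPDI and rbCAPG in bEECs for 35 named genes of the immune and eicosanoid lists, with 95% intervals from the fit and the 0 line. CCL5 lies furthest right at 2.10, and for most genes the interval includes 0.

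Whether rbPDI changed bEECs and bESCs by different amounts was tested with an interaction term. Of 17931 genes 79 were called (0.441%), 65 with a higher log2 fold change in bEECs than in bESCs (0.363%) and 14 with a lower one (0.0781%), while 1710 (9.54%) had an unadjusted p under 0.05. Of the 65, 58 were among the 460 genes that rose in bEECs, and 10 were called in bESCs. The fitted change was positive in both cell types for 29 and positive in bEECs but negative in bESCs for 36. A negative fitted value that was not called is not shown to be a fall. Of the 14, 3 were called lower in bEECs and 11 were called in bESCs. The fitted change was negative in bEECs but positive in bESCs for 11 of the 14. In bESCs alone, 177 genes rose with rbPDI (0.987%) and 12 fell (0.0669%), 1.05% in all. Of the 23 genes with a symbol among the 79, 20 had the higher log2 fold change in bEECs. The CXC chemokines were the main group, with 4 of 5 called. CXCL5 was at 3665, 8609 and 1946 CPM in bESCs with VC and 24840, 33920 and 36660 with rbPDI, a log2 fold change of 2.92 against 8.79 in bEECs (difference 5.87, SE 0.72, adjusted p = 0.00265). CXCL2 was at 62.4, 39. and 18.5 and 1175, 1173 and 1263 CPM in bESCs, a log2 fold change of 4.98 against 9.94 (difference 4.96, SE 0.73, adjusted p = 0.00656). CXCL3 changed by 2.99 in bESCs against 8.68 (difference 5.69, SE 0.79, adjusted p = 0.00586). In bESCs these 3 chemokines were already at 15.2 CPM or more in every VC library, and with rbPDI CXCL5 was higher in each bESC library than in any bEEC library. The difference for CXCL8 did not pass the test. PLAT, TNFAIP2 and PLA2R1 also changed more in bEECs, with differences of 2.77, 3.22 and 3.09 on the log2 scale. VEPH1, which binds phosphoinositides, was at 3.51, 7.75 and 4.85 CPM with VC and 1.45, 3.14 and 2.74 CPM with rbPDI in bEECs, a log2 fold change of -1.14 that was not called (adjusted p = 0.0551). DESeq2 called VEPH1 lower in bEECs (adjusted p = 0.00801). In bESCs it was at 0.22, 0.33 and 0.30 and 3.13, 3.72 and 3.38 CPM (difference -4.75, SE 0.48, adjusted p = 0.000994). The bESC library with rbPDI of animal 1 was shallow at 10072851 counts, and without it 61 genes were called in place of 79.

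**Figure D5:**
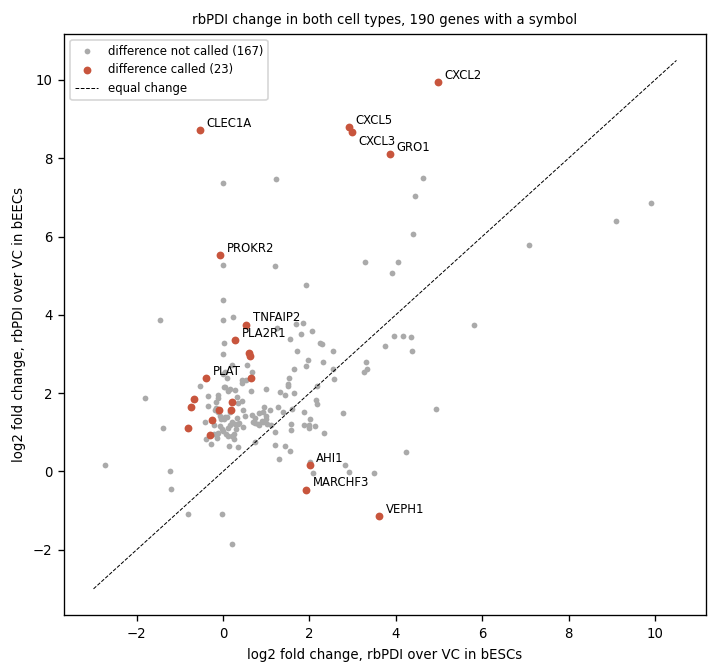
Log2 fold change with rbPDI over VC in bESCs (x axis) and bEECs (y axis) for the 190 genes with a symbol, with the line of equal change dashed. The 23 genes in red differ between cell types by the interaction test, and the CXC chemokines lie above the line while VEPH1, MARCHF3 and AHI1 lie below it.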

How the data were processed

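RNA was sequenced from 18 samples, with n = 3 per group in each of 6 groups, and samples were grouped by their labels. Libraries were made from SMART-Seq amplified cDNA. The authors used Trimmomatic for trimming, STAR for alignment to ARS-UCD1.3 and featureCounts for Ensembl gene counts. They deposited estimated counts without normalization, in which a read with several matches or overlapping genes was split into fractions. Of the values of 36075 genes, 23.3% had a fractional part. The sources name no strand option, so reads of overlapping and near-identical genes cannot be separated.

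In R 4.3.3 the values were rounded, and genes were filtered by filterByExpr over the 6 groups (17931 left), scaled by TMM and tested by quasi-likelihood in edgeR 4.0.16 on all 18 samples. The design had 6 group means and a block for the animal of each cell type, which left 8 residual degrees of freedom. Benjamini-Hochberg adjustment ran over every gene tested. Genes were called at an adjusted p under 0.05 with a log2 fold change beyond 1 in either direction. The SE is the absolute log2 fold change over the square root of F, and 95% intervals used it. Counting intervals are exact and, like the floor of 3 counts per library, cover counting error only. Replicate numbers stand for 3 animals per the labels and the study's methods, and the deviations of same-numbered bEEC libraries from their group means correlated at 0.311 to 0.624 over 9 pairs. The study's methods name no block. The blocked fit was made the main one because devices were paired by animal. An exact permutation test of 3 against 3 that ignores the pairing cannot give a two-sided p under 0.1, and permutation within animals has fewer arrangements still. The scripts were tested on simulated data.

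Symbols came from the study's supplementary tables of genes changed with rbCAPG in bEECs and in bESCs (245 identifiers, 190 with a symbol). A gene reference of another assembly was not used here. Up to 4 called members of a list with the smallest p were named (6 for chemokines, cytokines and NF-kB), all called lower, and the largest interactions, beside members named as values or after their values were seen. Some of these genes are not reported here. The comparison, members and lists were chosen with earlier results of these data known. The alternatives were no block, fits to 9 or 6 samples, DESeq2 1.42.0, its size factors within edgeR, the omission of the filter or a stricter one (10 counts in 9 samples), unrounded values, no limit on the fold change, glmTreat and each library left out.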

Additional observations from a re-analysis of the deposited data

Results flagged for a closer look

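The change with rbPDI differed between bEECs and bESCs, by edgeR's interaction term at an adjusted p under 0.05, for 23 genes with a symbol. Values are the log2 change in bEECs minus that in bESCs. In the CXC chemokines the difference was 5.87 for CXCL5, 5.69 for CXCL3, 4.96 for CXCL2 and 4.25 for GRO1. CLEC1A differed by 9.25 and PROKR2 by 5.59, and both were at 2.25 CPM or less in every bESC library with VC or rbPDI, so these fitted values depend on the prior count and give no bound. TNFAIP2 differed by 3.22. Among surface, complement and secreted proteins the difference was 3.09 for PLA2R1, 2.77 for PLAT, 2.43 for C1R, 2.32 for C1S and 1.91 for NRP2. Of the actin, adhesion and signalling genes, CYRIA differed by 1.75, FMNL3 by 1.58, FERMT1 by 1.37, NAV3 by 2.53, STOM by 1.57 and RASA2 by 1.23. The urea transporter SLC14A1 differed by 2.37 and the transcription factor ZEB1 by 1.66.

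The difference was in the other direction for 3 genes. It was -4.75 for VEPH1, -2.39 for MARCHF3, a ubiquitin ligase, and -1.85 for AHI1, a protein of the primary cilium. MARCHF3 and AHI1 rose in bESCs (log2 fold change 1.93 and 2.00) and were not called in bEECs (-0.47 and 0.16). With 3 samples per group no library was tested for standing apart.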

How the results depend on the processing

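Counts of calls moved by more than 1.5 times under several settings, while every setting that kept all libraries called more genes higher than lower with rbPDI. Without the replicate block (no pairing by animal), 138 genes were called higher, 7 lower and 17 for the difference between cell types, and DESeq2 without the block called 37 lower. Of 79 called genes that were chosen for naming, 42 were called also without the block. Single genes were followed under at most 15 alternatives, and 37 of the 79 were called under all of theirs. These alternatives did not include glmTreat or the setting without a limit on the fold change. Some genes that the main fit did not call were called under other settings. IL37 was called under 6 alternatives, CXCL16, VCAN and VEPH1 under 4 each, and CFTR under 2. SLAMF8 and IER3 were called under 1 each. Fits to the 9 bEEC libraries gave 137 lower genes and 1 for rbPDI against rbCAPG, and fits to the 6 libraries compared gave 115 and 27. The fit to the 6 VC and rbPDI bEEC libraries did not call ESM1, PLAU, PLAUR or SELP (adjusted p = 0.0566, 0.0977, 0.0857 and 0.0701). EMILIN1 and ZNF584 were not called in that fit either (0.0926 and 0.0646). DESeq2 with the block called 125 lower and 399 for the difference between cell types. With no filter on low counts these were 110 and 230. Without a limit on the fold change 157 were lower, and glmTreat called 141 higher, 5 lower and 24 for the difference between cell types. Leaving out 1 library gave 218 to 402 higher, 22 to 49 lower, 0 to 0 for rbPDI against rbCAPG (156 to 598 at an unadjusted p under 0.05) and 34 to 82 for the difference between cell types. Left out singly, bEEC VC libraries 1 and 3 gave 44 and 34 of these, rbPDI libraries 1, 2 and 3 gave 43, 40 and 38, bESC VC library 1 gave 51 and bESC rbPDI library 3 gave 39. TNFSF15 ranged from -0.23 to 0.16 on the log2 scale with 1 library left out and turned positive without VC library 3 (0.16) or rbPDI library 3 (0.07), and no other gene chosen for naming changed sign. DESeq2's size factors, the stricter filter and unrounded values moved no count by 1.5 times. The causes were not tested. With 3 animals, low counts or a change near the fold limit can decide a call, and a gene that was not called is not shown to be unchanged.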

Other observations

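Among the genes with a symbol, 50 belonged to no list, of which 33 rose with rbPDI and 2 fell. The following 4 were named after their values were seen. PLEKHS1, a protein with a pleckstrin homology domain, went from 5.11, 6.85 and 9.96 to 84.1, 68.2 and 142 CPM (log2 fold change 3.74, SE 0.36, adjusted p = 3.5e-05, edgeR). CYP24A1, the enzyme that inactivates vitamin D, went from 2.15, 11.1 and 4.94 to 17.6, 27.7 and 36.8 CPM (log2 fold change 2.35, SE 0.33, adjusted p = 0.00188; 0.0563 without the block). GCA, a calcium-binding protein first known from granulocytes, went from 258, 199 and 267 to 1099, 506 and 671 CPM (log2 fold change 1.59, SE 0.28, adjusted p = 0.0055; 0.0845 without the block), and STOM, a membrane scaffold protein, from 23.2, 25.7 and 26.5 to 82.3, 64.8 and 123 CPM (log2 fold change 1.78, SE 0.23, adjusted p = 0.000455). In all 4 genes every rbPDI library was above every VC library.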
